A study of Mus musculus with 4 samples.

Results

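Laminins, elastic fibre components and matricellular glycoproteins were compared between the mouse stromal lines OP9M2 and BFC012. The set held 49 genes, and a gene was measured through the probe sets that the array annotation used here gave to that gene alone. By this rule 46 of the 49 genes were measured, with 92 of the 45037 probe sets tested, among 18193 genes in all. Fbn1 and Efemp2 were not analysed here, and the probe sets of Loxl2 also named another gene and were not used. The rule used no measured value, although the members were chosen with earlier results of these data known.

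The study compared OP9M2, which its labels call supportive, with the non-supportive line BFC012, to learn what OP9M2 cells are and how they sustain human hematopoietic stem and progenitor cells. OP9M2 is a clonal subline of the OP9 stroma and is labelled as mesenchymal stem cells, and BFC012 is labelled as fibroblasts from fetal liver. Total RNA was measured on 4 Affymetrix mouse arrays, 2 per line. Before harvest both lines had received 2000 rad and had been plated at 25000 cells per cm2 for 48 hours. OP9M2 was grown with 20% serum and BFC012 with 10% serum, so that serum and line cannot be told apart. The arrays are labelled as biological replicates, and since nothing further says that they came from separate cultures, the p-values measure only the spread between these arrays. In such bulk RNA, fewer cells making a transcript and less of it per cell cannot be told apart.

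Laminins are trimers of an alpha, a beta and a gamma chain that polymerise into the sheet of the basement membrane, where nidogens and perlecan tie them to collagen IV. Elastic fibres consist of elastin on a scaffold of fibrillin microfibrils, are assembled with the help of fibulins and latent TGF-beta binding proteins, and are cross-linked by lysyl oxidases. Matricellular proteins such as thrombospondins, tenascins and SPARC are secreted into the matrix and modulate adhesion and growth factor activity rather than bear load. In bone marrow and fetal liver, stromal cells produce much of the matrix to which hematopoietic cells attach.

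The DNA before the start of 4 members that differed between the lines is given first, because Nid1 and Ecm1 were higher and Lama5 and Mfap2 lower in OP9M2. These 4 were the members among the 9 called that had an entry in the RefSeq promoter table (GRCm38.p6), which held 31 of the 49 members. Each sequence is the 250 bases before the start, 5′ to 3′ on the strand of the gene, for Nid1 at chr13:13437352-13437601 (plus strand), Ecm1 at chr3:95739570-95739819 (minus strand), Lama5 at chr2:180225860-180226109 (minus strand) and Mfap2 at chr4:141010431-141010680 (plus strand, the first of 2 entries). Capitals mark matches on either strand. The GC box was searched as GGGCGG. The CCAAT box was searched by the letters of its name. The TATA box was searched as TATAAA. The AP-1 element was searched as TGAGTCA, and no matches overlap in these windows.
Nid1, higher: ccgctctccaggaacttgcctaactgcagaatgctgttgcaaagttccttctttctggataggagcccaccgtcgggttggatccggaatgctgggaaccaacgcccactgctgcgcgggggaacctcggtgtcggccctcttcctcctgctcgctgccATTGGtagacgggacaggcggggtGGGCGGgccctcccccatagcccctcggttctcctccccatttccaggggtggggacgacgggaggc
Ecm1, higher: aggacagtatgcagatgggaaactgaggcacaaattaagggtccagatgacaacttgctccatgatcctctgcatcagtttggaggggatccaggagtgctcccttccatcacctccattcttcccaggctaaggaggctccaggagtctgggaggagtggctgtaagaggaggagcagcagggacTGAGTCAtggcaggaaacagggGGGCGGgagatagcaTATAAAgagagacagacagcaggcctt
Lama5, lower: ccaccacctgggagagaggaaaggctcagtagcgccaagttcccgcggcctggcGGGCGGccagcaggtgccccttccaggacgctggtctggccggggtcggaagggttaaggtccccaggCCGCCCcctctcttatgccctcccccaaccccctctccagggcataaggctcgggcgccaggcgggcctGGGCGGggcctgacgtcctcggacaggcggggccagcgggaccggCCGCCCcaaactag
Mfap2, lower: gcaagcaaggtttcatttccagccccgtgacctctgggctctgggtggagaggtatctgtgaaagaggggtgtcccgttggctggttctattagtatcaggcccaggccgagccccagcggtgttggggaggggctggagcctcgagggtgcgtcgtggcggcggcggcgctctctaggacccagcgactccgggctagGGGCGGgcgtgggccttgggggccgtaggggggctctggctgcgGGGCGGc

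The promoter of Ecm1 held a TATA box 27 bases, a GC box 42 bases and an AP-1 element 64 bases before the start, with 54% GC and 1 CpG. The other 3 windows held GC boxes, 4 in Lama5, 2 in Mfap2 and 1 in Nid1, and Nid1 also held a CCAAT box on the opposite strand. They were rich in GC, with 64.4% and 16 CpG in Nid1, 72.4% and 19 CpG in Lama5 and 68.8% and 18 CpG in Mfap2, against medians of 52.4% and 6 CpG over the 32851 promoters of the table. Over these 32851 windows of the same length, 12.4% held TATAAA, 33.8% CCAAT, 32.7% GGGCGG and 4.46% TGAGTCA. The matches describe the letters of these windows and not sites of binding.

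Values below are log2 values as read from the deposited intensities, and a difference is OP9M2 minus BFC012 with its standard error from limma. A gene was called at a Benjamini-Hochberg adjusted p under 0.05 over all probe sets and a difference of at least 1, a 2-fold change. Background was set at 6.09, the 95th percentile of 81 probe sets for olfactory and related receptor genes. Each gene is given by its brightest probe set.

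Of the 46 members, 5 were higher in OP9M2 (10.9%, against 2.36% of all genes) and 4 were lower (8.7%, against 3.56% of all genes). The higher members were Lama4, Nid1, Loxl3, Sparcl1 and Ecm1, and the lower ones Lama5, Nid2, Mfap2 and Thbs1. By probe sets, 7 of 92 were higher and 7 lower, against 1.80% and 2.66% of all probe sets. The median difference of the members was -0.04, beside 0.03 over all genes, with members far from 0 on either side. A difference of at least 1 was found in 21 members (45.7%), 13 positive and 8 negative, against 11.2% of all genes. The 2 arrays of OP9M2 lay wholly above or wholly below those of BFC012 in 33 members (71.7%, 18 above and 15 below), against 53.2% of all genes. The shares over all genes include genes at background. Of 18193 genes, 11795 were above it on both arrays of a line, and 8 of the 46 members were above it on no array. The part of expression level in these contrasts was not tested.

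Leaving out an array left a line with 1 array, assumed to vary like the other line, which then gave all of the spread. When either BFC012 array was left out (replicate 1 or replicate 2) and only the OP9M2 pair gave the spread, limma called no gene at all, and so no member. The 9 called members all kept their sign and a difference of at least 1 in both cases, with Thbs1 at -6.04 and -6.17, Sparcl1 at 6.5 and 6.13 and Nid1 at 1.74 and 1.78. Of the 9, Nid2 moved most, to -3.18 and -2.40. Since the 9 were called on these same arrays and moved by at most 0.39, this is no separate test of the calls. When either OP9M2 array was left out, only the closer BFC012 pair gave the spread. The calls then rose among the members, as they did over all genes. A call gained in this way holds no OP9M2 spread, so that for most members with differing OP9M2 arrays the difference with each OP9M2 array is given below without a test. For Sparcl1 and Thbs1 the values on each array are given instead.

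**Figure D1:**
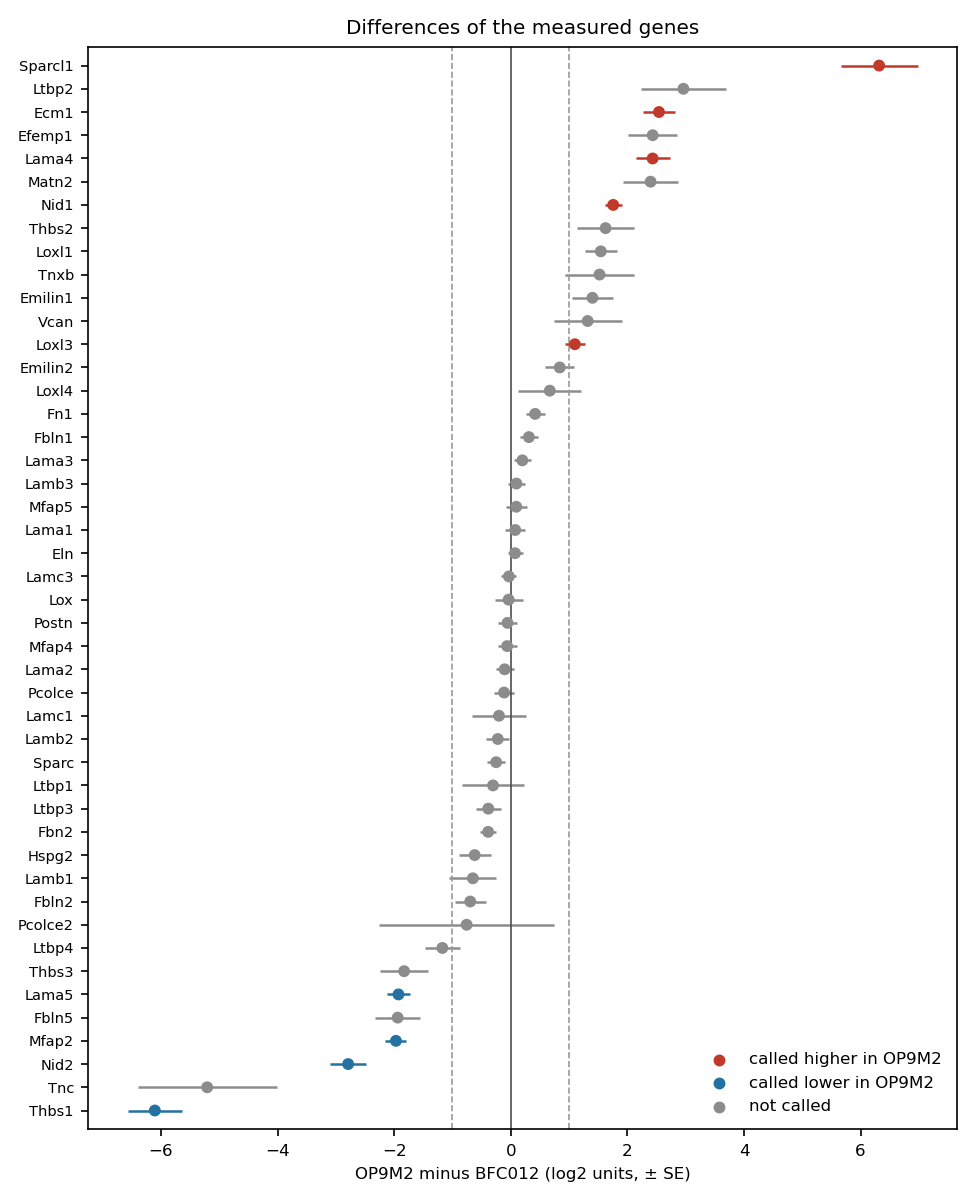
Difference between OP9M2 and BFC012 (log2, OP9M2 minus BFC012) of the 46 measured members, ordered by size from the most positive, with points for the estimate, bars for the standard error, colour for the call and dashed lines at a 2-fold change. Sparcl1 at 6.32 and Thbs1 at -6.10 lie farthest from 0, and the called members stand on both sides.

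Both BFC012 arrays were closer to each other (r = 0.994 over all probe sets) than both OP9M2 arrays (r = 0.98), and the correlations between lines were 0.941 to 0.954. Poly-A spike controls averaged 7.45 on replicate 1 and 4.0 on replicate 2 of OP9M2, against 6.90 and 6.04 for BFC012. The 3′ control for 18S ribosomal RNA had 11.9 and 14 in OP9M2, against 12 and 12.5 in BFC012. Among fibroblast markers 2 of 10 were higher in OP9M2 (Col1a2 and S100a4) and 1 lower (Dcn), where Col1a2 had 14.25 and 14.14 in OP9M2, against 6.18 and 6.07 in BFC012, and Thy1 was above background on no array. Of the mesenchymal stem cell surface genes 0 of 7 were higher and 2 were lower (Eng and Mcam). Adipocyte markers were higher in 3 of 5 (summed log2 values 63.6 and 48.8 in OP9M2, 25.3 and 24.3 in BFC012). Mesothelial markers were lower in 6 of 7 (35.4 and 38.2, against 72.4 and 74.1 in BFC012), epithelial markers in 3 of 6 (34.5 and 34.0, against 42.0 and 43.5) and smooth muscle markers in 3 of 5 (37.0 and 36.6, against 48.0 and 45.6). No hematopoietic (0 of 7), endothelial (0 of 6) or hepatocyte marker (0 of 6) was called. In each line 2 hematopoietic markers (Laptm5 and Cd3e), 1 endothelial (Kdr) and 1 hepatocyte marker (Ttr) were above background on both arrays. Others, such as Ptprc (4.36 to 4.41) and Alb (5.40 to 5.86), were below background on every array. The part of these cell type markers in the differences below was not tested.

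Among the laminin chains, the alpha 4 chain was higher and the alpha 5 chain lower in OP9M2, and the other 8 measured chains were not called. Lama4, whose chain is typical of mesenchymal and vascular basement membranes, had log2 values of 7.89 and 7.13 in OP9M2, against 5.18 and 4.98 in BFC012. Both BFC012 arrays were below background, so that Lama4 was at least 2.68-fold higher in OP9M2 with the BFC012 level taken as background (difference 2.43 ± 0.29, adjusted p = 0.0237). A second probe set of Lama4 was above background on no array and was not called (0.44 ± 0.19, adjusted p = 0.317). Lama5, the alpha chain of most mature epithelial basement membranes, had 8.32 and 8.30 in OP9M2, against 10.47 and 10.00 in BFC012. That is a 3.80-fold lower level in OP9M2 (-1.93 ± 0.20, adjusted p = 0.0173), and a second probe set of Lama5 also fell, by 1.63 (adjusted p = 0.0201).

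The beta 1 and gamma 1 chains, shared by most laminins, were well above background in both lines and were not called. Lamb1 had 11.47 and 10.33 in OP9M2 and 11.48 and 11.62 in BFC012 (-0.65 ± 0.40, adjusted p = 0.483), and Lamc1 had 10.75 and 9.43 in OP9M2 and 10.41 and 10.17 in BFC012 (-0.20 ± 0.46, adjusted p = 0.883). In both genes OP9M2 replicate 2 was the lowest array, and the difference of Lamb1 was -1.22 without OP9M2 replicate 1 and -0.083 without OP9M2 replicate 2. Lamb2 (-0.22) and Lama2 (-0.11) were above background on all 4 arrays, and Lama1, Lama3, Lamb3 and Lamc3 were above background on no array.

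The linkers of the basement membrane divided, with Nid1 higher and Nid2 lower in OP9M2. Nid1, nidogen 1, had log2 values of 12.76 and 12.95 in OP9M2, against 11.08 and 11.12 in BFC012. The difference was 3.38-fold (1.76 ± 0.14, adjusted p = 0.00921) and stood at 2.20 (adjusted p = 0.00638) on a second probe set. Nid2, its paralog, had 7.28 and 6.96 in OP9M2, against 9.52 and 10.30 in BFC012, a 6.91-fold lower level in OP9M2 (-2.79 ± 0.31, adjusted p = 0.0196). For neither nidogen did the arrays of the lines overlap. Hspg2, which encodes perlecan, was not called (-0.62 ± 0.27, adjusted p = 0.325). Fibronectin (Fn1), the adhesive glycoprotein bound by many integrins, had 14.38 and 14.11 in OP9M2 and 13.89 and 13.76 in BFC012, a difference of 0.42 ± 0.16 that was not called (adjusted p = 0.276).

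**Figure D2:**
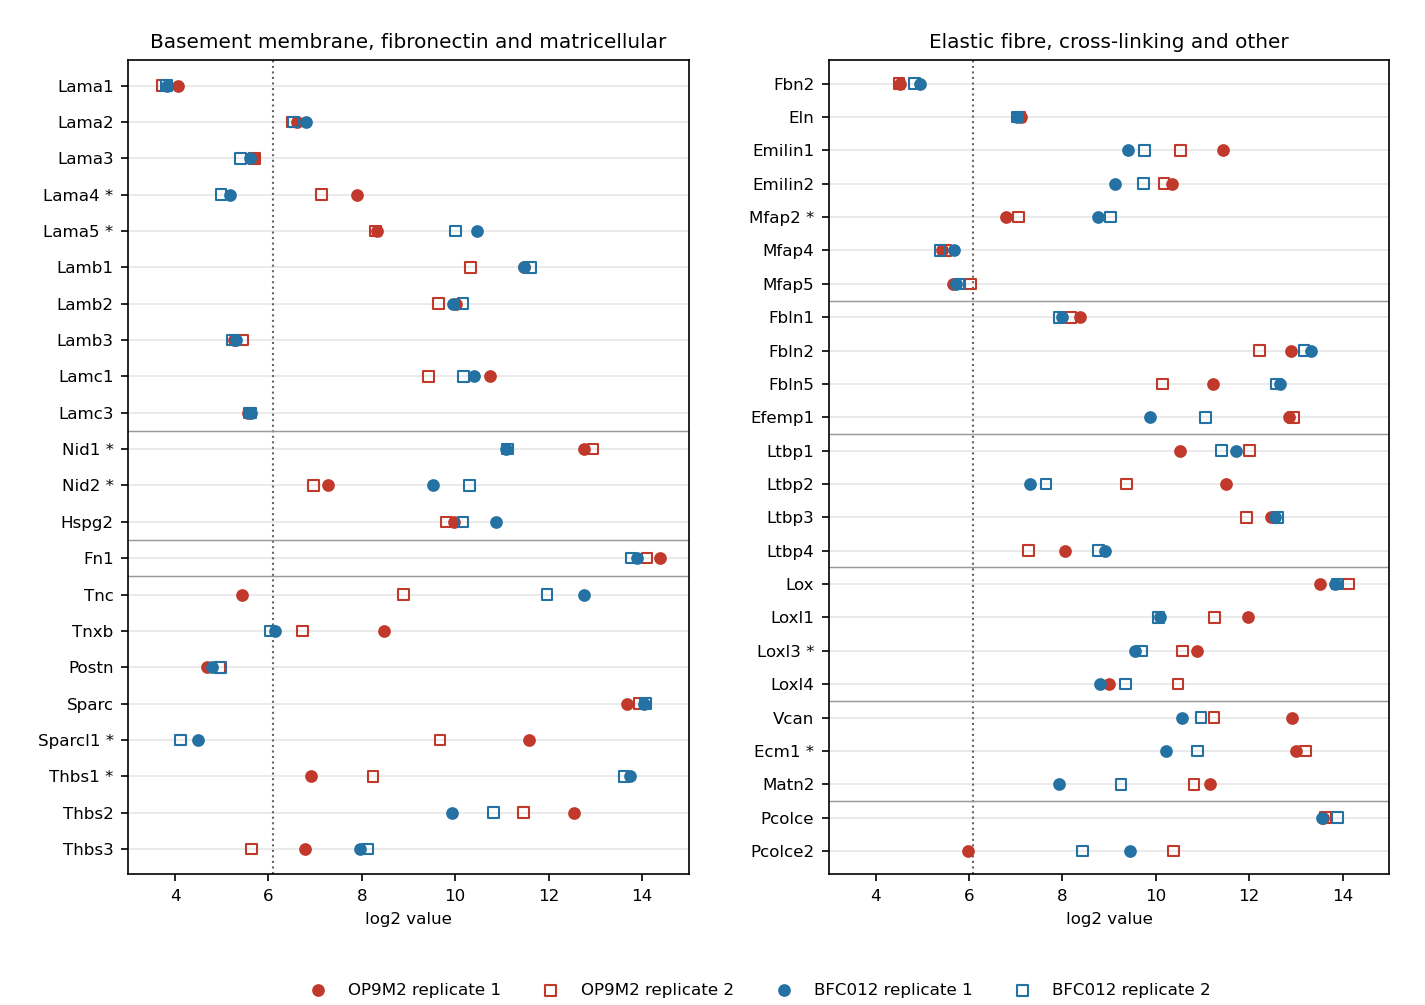
Log2 values (horizontal axis) of the 46 measured members on each array, with OP9M2 in red, BFC012 in blue, replicate 1 as filled circles, replicate 2 as open squares, the background level of 6.09 as a dotted line and called members starred. The arrays of the lines are apart in all 9 called members, which the call itself favours, and Sparcl1 and Lama4 lie below background in BFC012 alone.

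Of the 7 measured genes of the microfibril and elastic core, 1 was lower and 6 were not called. Mfap2, a glycoprotein of fibrillin microfibrils, had 6.79 and 7.06 in OP9M2, against 8.76 and 9.03 in BFC012, and was 3.92-fold lower in OP9M2 (-1.97 ± 0.18, adjusted p = 0.0122). A second probe set of Mfap2 differed by only -0.35 (adjusted p = 0.407), so the probe sets of this gene disagree in size. Emilin1, found where elastin meets microfibrils, had 11.43 and 10.52 in OP9M2 and 9.40 and 9.76 in BFC012, apart on all arrays but not called (1.40 ± 0.35, adjusted p = 0.123). Its difference was 0.95 without OP9M2 replicate 1 and 1.85 without OP9M2 replicate 2. Elastin itself (Eln) was within about 1 log2 unit of background, with 7.11 and 7.09 in OP9M2, against 7.03 and 7.03 in BFC012 (0.07 ± 0.13, adjusted p = 0.841). Emilin2 was not called (0.84 ± 0.25, adjusted p = 0.173), and the brightest probe sets of Fbn2, Mfap4 and Mfap5 were above background on no array.

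No fibulin was called by its brightest probe set. The arrays of the lines were apart in all 4, and in 53.2% of all genes. Efemp1, fibulin 3, had 12.85 and 12.95 in OP9M2, against 9.87 and 11.06 in BFC012 (2.43 ± 0.42, adjusted p = 0.0562). The BFC012 arrays of Efemp1 were themselves more than 1 log2 unit apart. Fbln5, which mice need to assemble elastic fibres, had 11.23 and 10.14 in OP9M2 and 12.66 and 12.59 in BFC012 (-1.94 ± 0.39, adjusted p = 0.0768). Its difference was -2.48 without OP9M2 replicate 1 and -1.40 without OP9M2 replicate 2. A dim second probe set of Fbln5 (5.23 and 4.98 in OP9M2, against 6.18 and 6.04 in BFC012) was called lower (-1.0 ± 0.16, adjusted p = 0.0472) but passed background on a single array. Fbln2 had 12.90 and 12.21 in OP9M2 and 13.33 and 13.17 in BFC012. Fbln2 (-0.70 ± 0.27, adjusted p = 0.268) and Fbln1 (0.31 ± 0.15, adjusted p = 0.365) were not called. Fbln2 stood at -1.04 without OP9M2 replicate 1 and at -0.35 without OP9M2 replicate 2.

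The latent TGF-beta binding proteins, which hold TGF-beta in the matrix, gave no call among 4 genes. Ltbp2, a family member that does not bind latent TGF-beta, had 11.50 and 9.37 in OP9M2, against 7.30 and 7.65 in BFC012 (2.96 ± 0.73, adjusted p = 0.120). The OP9M2 arrays of Ltbp2 were far apart but both above BFC012, with a difference of 1.90 without OP9M2 replicate 1 and 4.02 without OP9M2 replicate 2. Ltbp4 had 8.06 and 7.27 in OP9M2 and 8.91 and 8.77 in BFC012 (-1.17 ± 0.30, adjusted p = 0.127), with -1.57 when OP9M2 replicate 1 was left out and -0.78 when OP9M2 replicate 2 was. Ltbp1 had 10.51 and 12.00 in OP9M2 around 11.72 and 11.40 in BFC012 (-0.31 ± 0.52, adjusted p = 0.835), and its sign depended on the array, with 0.44 without OP9M2 replicate 1 and -1.05 without OP9M2 replicate 2. Ltbp3 had 12.46 and 11.94 in OP9M2 and 12.55 and 12.62 in BFC012 and was not called (-0.39 ± 0.22, adjusted p = 0.444).

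Among the lysyl oxidases, the enzymes that cross-link elastin and collagen, Loxl3 was higher in OP9M2 and the other 3 were not called. Loxl3 had 10.87 and 10.57 in OP9M2, against 9.55 and 9.69 in BFC012, a 2.14-fold difference (1.10 ± 0.17, adjusted p = 0.0447). It lay close to the limit of 1 and was 0.94 without OP9M2 replicate 1, which ended the call. Loxl1, which in mice maintains elastic fibres, had 11.98 and 11.25 in OP9M2 and 10.09 and 10.06 in BFC012 (1.54 ± 0.27, adjusted p = 0.0598). A second probe set of Loxl1 was called higher, with 8.26 and 7.93 in OP9M2 and 6.96 and 6.79 in BFC012 (1.22 ± 0.18, adjusted p = 0.0393), and the brightest one differed by 1.18 without OP9M2 replicate 1 and by 1.91 without OP9M2 replicate 2. Lox itself had 13.52 and 14.13 in OP9M2 and 13.84 and 13.88 in BFC012 (-0.04 ± 0.24, adjusted p = 0.966), and Loxl4 differed by 0.67 ± 0.54 (adjusted p = 0.601).

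The matricellular genes held the largest differences of the set in either direction, Sparcl1 higher and Thbs1 lower in OP9M2. Sparcl1, the SPARC relative hevin, had 11.58 and 9.67 in OP9M2, against 4.50 and 4.12 in BFC012. With BFC012 below background, Sparcl1 was at least 23.1-fold higher in OP9M2 (6.32 ± 0.66, adjusted p = 0.0170). That bound comes from the mean of OP9M2 arrays that lay 1.90 apart, so its size depends on the array. Thbs1, thrombospondin 1, an activator of latent TGF-beta, had 6.91 and 8.24 in OP9M2, against 13.75 and 13.61 in BFC012. It was 68.8-fold lower in OP9M2 (-6.10 ± 0.46, adjusted p = 0.00759), and a second probe set of Thbs1 fell by 6.07 (adjusted p = 0.00838). The OP9M2 arrays of Thbs1 lay apart (replicate 1 minus replicate 2 at -1.32), so the size of its fold depends on the array. Sparc, by contrast with its relative Sparcl1, had 13.67 and 13.94 in OP9M2 and 14.04 and 14.07 in BFC012, a difference that was not called (-0.25 ± 0.16, adjusted p = 0.487).

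Tenascin C and the other thrombospondins lay apart between the lines, as 53.2% of all genes did, without passing the test. Tnc, an anti-adhesive glycoprotein of remodelling tissue, had 5.43 and 8.89 in OP9M2, against 12.76 and 11.97 in BFC012 (-5.21 ± 1.19, adjusted p = 0.103). The OP9M2 arrays of Tnc differed by 3.46, the first of them below background, so that the difference was -3.48 without OP9M2 replicate 1 and -6.94, on an array below background, without OP9M2 replicate 2. Thbs2, which like Thbs1 inhibits angiogenesis, had 12.55 and 11.46 in OP9M2 and 9.94 and 10.82 in BFC012 (1.63 ± 0.48, adjusted p = 0.175). The 3 probe sets of Thbs2 gave differences of 1.57 to 1.75, and the brightest gave 1.08 without OP9M2 replicate 1 and 2.17 without OP9M2 replicate 2. Thbs3 had 6.79 and 5.63 in OP9M2 and 7.96 and 8.12 in BFC012 (-1.83 ± 0.41, adjusted p = 0.0994), with -2.41, on an array below background, without OP9M2 replicate 1 and -1.25 without OP9M2 replicate 2. Tnxb, tenascin X, had 8.48 and 6.73 in OP9M2 and 6.14 and 6.03 in BFC012 (1.52 ± 0.60, adjusted p = 0.277), with BFC012 near background, and its difference was 0.65 without OP9M2 replicate 1 and 2.40 without OP9M2 replicate 2. Periostin (Postn) was above background on no array.

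All 3 further matrix glycoproteins had both OP9M2 arrays above both BFC012 arrays, and Ecm1 was called. The arrays of the lines were apart, in either direction, in 53.2% of all genes. Ecm1, a secreted glycoprotein that binds other matrix proteins, had 12.99 and 13.20 in OP9M2, against 10.22 and 10.89 in BFC012, a 5.82-fold difference (2.54 ± 0.27, adjusted p = 0.0174). Matn2, matrilin 2, an adaptor of filamentous networks, had 11.15 and 10.81 in OP9M2 and 7.92 and 9.25 in BFC012 (2.40 ± 0.47, adjusted p = 0.0766). Vcan, the hyaluronan-binding proteoglycan versican, had 12.91 and 11.25 in OP9M2 and 10.56 and 10.97 in BFC012 (1.32 ± 0.59, adjusted p = 0.330). Of its 8 probe sets none was called, but several were above background on no array. Those above background on every array gave 1.32, 1.77 and 1.55. The brightest gave 0.49 without OP9M2 replicate 1 and 2.15 without OP9M2 replicate 2. The enhancers of procollagen C-proteinase were not called. Pcolce had 13.58 and 13.63 in OP9M2 and 13.56 and 13.89 in BFC012 (-0.12 ± 0.17, adjusted p = 0.801). Pcolce2 had 5.98 and 10.37 in OP9M2 and 9.44 and 8.43 in BFC012 (-0.76 ± 1.51, adjusted p = 0.861), the widest spread of a member within a line, and its sign turned with the array, with 1.44 without OP9M2 replicate 1 and -2.95, on an array below background, without OP9M2 replicate 2.

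**Figure D3:**
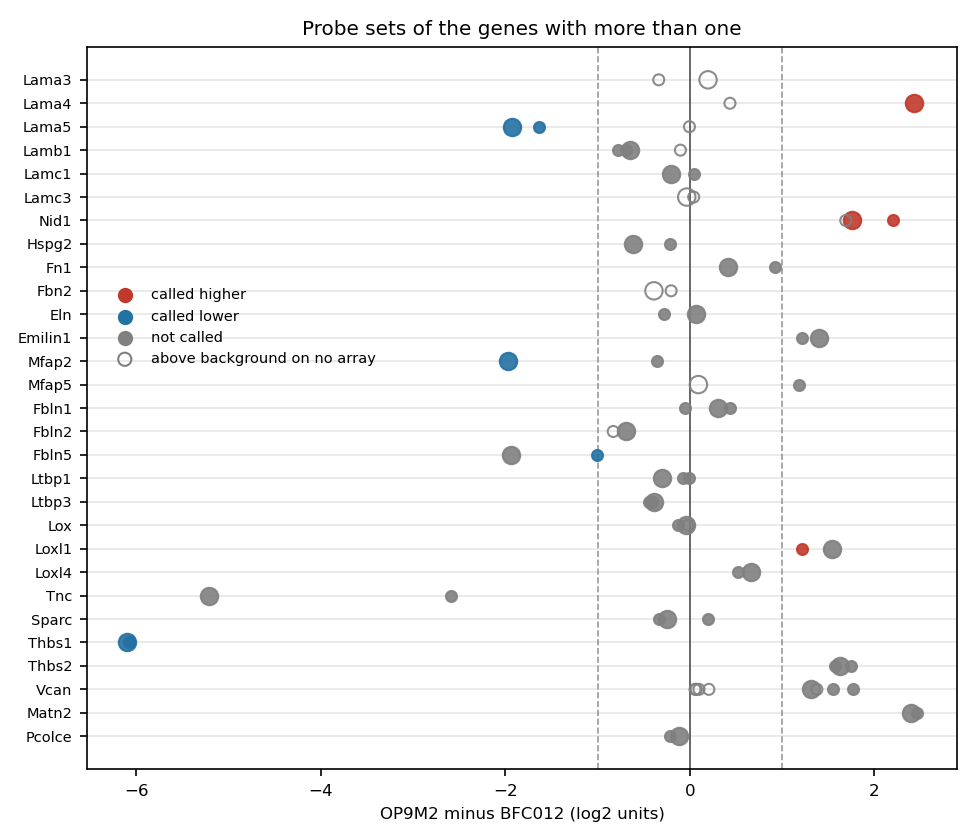
Differences (log2, OP9M2 minus BFC012) of every probe set of the members that have several, 1 row per gene, with called probe sets coloured, the brightest probe set of a gene drawn larger and open circles for probe sets above background on no array. No gene has probe sets called in both directions, and the probe sets of Thbs1 at -6.10 and -6.07 lie together while those of Mfap2 at -1.97 and -0.35 do not.

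Of the 29 members with several probe sets, 0 had probe sets called in both directions. The called members Nid2, Loxl3, Sparcl1 and Ecm1 were measured by 1 probe set each. In all, 12 members were at least 1 log2 unit apart without a call, 8 positive and 4 negative, with adjusted p between 0.0562 and 0.330. The other 25 uncalled members had differences of -0.76 to 0.84 and a lowest adjusted p of 0.173. By their brightest probe sets, 32 of the 46 members were above background on all 4 arrays and 8 on none. Among these 8, a second probe set of Mfap5 passed background on OP9M2 replicate 2 alone, with 6.02 and 6.38 in OP9M2 and 5.20 and 4.82 in BFC012 (1.18 ± 0.22, adjusted p = 0.0636).

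The members also varied within OP9M2. Its replicates were at least 1 log2 unit apart in 14 of the 46 members (30.4%), against 7.4% of all genes, and the BFC012 replicates in 3 (6.52%), against 0.566% of all genes. OP9M2 replicate 1 was the brighter array in 9 of the 14, among them Ltbp2 (by 2.12), Sparcl1 (1.90), Tnxb (1.75) and Vcan (1.66). OP9M2 replicate 2 was the brighter array in 5, with replicate 1 minus replicate 2 at -4.39 in Pcolce2, -3.46 in Tnc, -1.49 in Ltbp1, -1.48 in Loxl4 and -1.32 in Thbs1. Over the 46 members the arrays of OP9M2 correlated with r = 0.922 and those of BFC012 with r = 0.988, as a description over genes that share the same arrays. All 5 adipocyte markers were brighter on OP9M2 replicate 1 than on OP9M2 replicate 2, by 0.56 to 7.43, with Adipoq at 12.84 on OP9M2 replicate 1 and 5.41 on OP9M2 replicate 2, against 3.99 and 3.39 in BFC012. Of the 7 mesothelial markers 3 were brighter on OP9M2 replicate 1 and 4 on OP9M2 replicate 2, with replicate 1 minus replicate 2 between -3.44 (Msln) and 1.57 (Lrrn4). The part of these markers, and of the array controls given above, in the spread of the members was not tested.

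**Figure D4:**
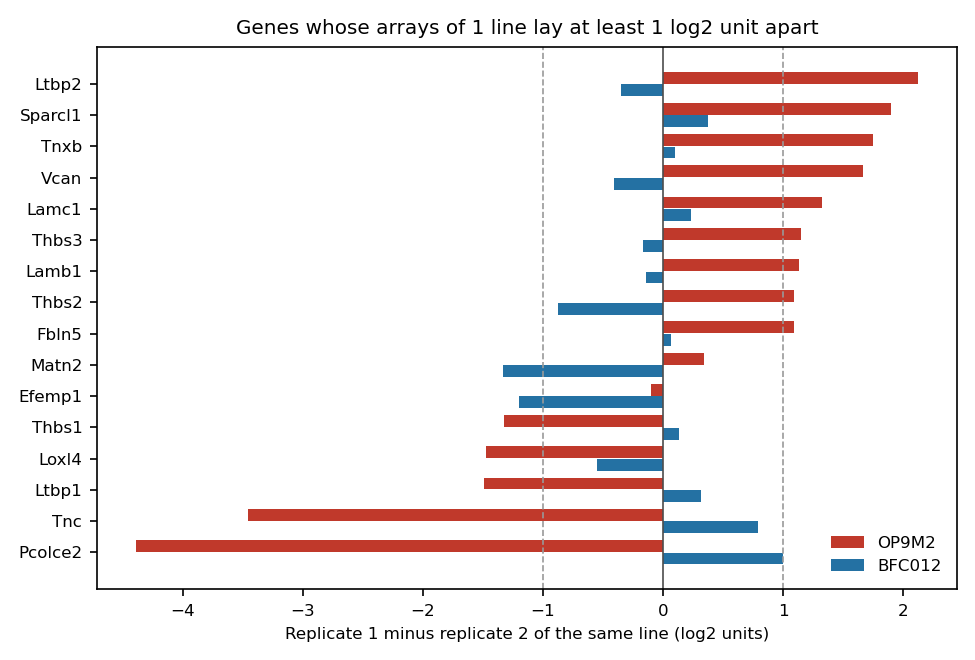
Replicate 1 minus replicate 2 (log2 units) within OP9M2 (red) and within BFC012 (blue) for the members in which either pair was at least 1 log2 unit apart, with dashed lines at that distance. The OP9M2 bars reach beyond the lines in 14 members, Pcolce2 at -4.39 and Tnc at -3.46 farthest, and the BFC012 bars in 3.

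Receptors, partners and further family members, 87 genes of which 82 were measured, gave 3 higher and 6 lower genes, with a median difference of -0.01. Over all genes 2.36% were called higher and 3.56% lower. The 9 called genes kept their sign and a difference of at least 1 without BFC012 replicate 1 and without BFC012 replicate 2, where limma called no gene at all. Since the 9 were called on these same arrays and moved by at most 0.30, this is no separate test of the calls. With 1 OP9M2 array limma called more of these genes, as it did over all genes. None of the 9 laminin and basement membrane receptors, 8 other basement membrane genes and 6 matricellular receptors was called. Their differences ran from -1.42 in Itga3 to 5.77 in Cd36, whose BFC012 arrays were below background and whose OP9M2 arrays had 11.56 and 7.13. Among 24 further matricellular genes, Tgfbi, a secreted integrin ligand, had 11.46 and 10.45 in OP9M2, against 5.30 and 4.92 in BFC012, and was at least 29.0-fold higher in OP9M2 (5.84 ± 0.38, adjusted p = 0.00517). Ccn5 had 12.20 and 11.24 in OP9M2, against 8.69 and 9.30 in BFC012 (2.73 ± 0.40, adjusted p = 0.0389). Smoc1, a SPARC-related gene, had 9.59 and 8.61 in OP9M2, against 6.60 and 6.48 in BFC012 (2.55 ± 0.35, adjusted p = 0.0340). Spon2, a matrix protein of the spondin family, was the gene of this group that was lower in OP9M2, at 6.73 and 6.96, against 10.86 and 11.37 in BFC012 (-4.26 ± 0.23, adjusted p = 0.00331).

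The other lower genes were 1 of 7 fibronectin and RGD receptors, 1 of 8 elastic fibre partners, 2 of 11 genes of procollagen processing and cross-linking and 1 of 9 versican and hyaluronan partners. Tgfb3, a ligand held by latent TGF-beta binding proteins, had 8.22 and 7.78 in OP9M2, against 10.92 and 11.44 in BFC012 (-3.18 ± 0.26, adjusted p = 0.00947). Itgb8, the chain of an integrin that activates latent TGF-beta, was below background in OP9M2 (2.76 and 3.18) and had 8.58 and 8.96 in BFC012, at least 6.39-fold lower in OP9M2 (-5.79 ± 0.23, adjusted p = 0.00183). Bmp1, the procollagen C-proteinase whose action Pcolce enhances, had 8.50 and 8.22 in OP9M2, against 10.10 and 10.16 in BFC012 (-1.77 ± 0.16, adjusted p = 0.0117). Adamts3, a procollagen N-proteinase, had 4.31 and 4.17 in OP9M2, below background, against 7.0 and 7.33 in BFC012, at least 2.10-fold lower in OP9M2 (-2.93 ± 0.18, adjusted p = 0.00426). Adamts9, which cleaves versican, had 5.28 and 5.95 in OP9M2, also below background, against 8.69 and 9.27 in BFC012, at least 7.39-fold lower in OP9M2 (-3.36 ± 0.32, adjusted p = 0.0134).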

How the data were processed

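Each line, OP9M2 and BFC012, gave 2 Affymetrix mouse arrays of total RNA, after amplification with an Ambion kit according to the study's methods. The deposited values were intensities for each probe set on each array. The submitters' processing notes name RMA and affy, and their versions were not given in the sources used here. Up to 6.57% of an array's values exceeded 65535, the scanner's limit, while their natural logarithms ran from 2.06 to 14.9, so the natural logarithm was read as the RMA log2 value. The base was not stated by the authors. With log2 of the deposited intensities, differences grow by a factor of 1.44 at the same adjusted p.

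Of 45101 probe sets, 64 array controls were left out. Gene names came from the platform annotation, in which 34945 of 45037 probe sets named 1 gene, 932 several and 9160 none. Identifiers of 34741 matched the reference gene table, and 204 did not. Differences were fitted by lmFit and eBayes of limma 3.58.1 under R 4.3.3 (no covariate, 2.50 prior and 2 residual degrees of freedom, two-sided), adjusted by Benjamini-Hochberg over 45037 probe sets and called at an adjusted p under 0.05 and at least 1 log2 unit, after the thresholds in the study's methods. A gene was represented by its probe set with the highest mean. Where a line was below background on both arrays, a fold is a bound against the higher of background and its own mean. The number of arrays limits the precision.

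Values per array are given for members with a called probe set, for members at least 1 log2 unit apart, and for the brightest of a role; partner genes are named where called. Lamc1, Eln, Ltbp1, Pcolce2, a second probe set of Mfap5 and the uncalled partner genes Itga3 and Cd36 fell outside this rule. They were added after their values had been seen. The members and lists were chosen with earlier results of these data known. The labels do not say whether equal replicate numbers pair arrays of the lines. The replicate differences of the lines correlated at -0.103 over probe sets, which cannot decide this. Alternatives were log2 of the deposited values, quantile normalization, a background filter, an intensity trend, robust estimation, no minimum difference, gene means, a replicate block and leaving out each array. The fit was also run on simulated data in which both lines had the same spread. The spread of these lines differed, so that run does not test the calls made here.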

Additional observations from a re-analysis of the deposited data

How the results depend on the processing

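Log2 of the deposited values, quantile normalization, robust estimation and no minimum difference called the same 9 members. An intensity trend lost Loxl3 and gained Efemp1, a background filter gained Efemp1 and Loxl1, and means over all probe sets of a gene gained these and Fbln5. With the replicate number as a block, 2 members were higher and 2 lower (3 and 3 probe sets, and 1 partner gene higher). Lama4, Lama5, Nid1, Nid2 and Loxl3 then lost the call. Whether equal replicate numbers pair arrays of the lines is not stated by the labels. With the pairing crossed, chosen after seeing the data, 4 members were higher and 4 lower. Lama4 and Loxl3 lost the call there, and Thbs2 gained it. Partner genes higher were 5 with the background filter, and partner genes lower were 10 with gene means. Leaving out each array in turn gave 0 to 11 members higher and 0 to 10 lower, 0 to 18 probe sets higher and 0 to 14 lower, 0 to 12 partner genes higher and 0 to 13 lower, and a median difference of -0.0538 to 0.134, the last without OP9M2 replicate 1. With 1 array left in a line, the spread came from the other line alone, and the calls over all genes rose and fell in the same settings. The counts of 0 came when BFC012 replicate 1 or BFC012 replicate 2 was left out, with smallest adjusted p in limma of 0.0826 and 0.0903 over 45037 probe sets, of which 4568 and 4517 had an unadjusted p under 0.05.

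No called member reversed under any of these settings. Among uncalled members, gene means gave Lama3 -0.069, Lamc3 0.0048 and Eln -0.10. Leaving out each array changed the sign of Lama1 (-0.085 to 0.24), Lama2 (-0.23 to 0.022), Lamc1 (-0.86 to 0.46), Mfap4 (-0.21 to 0.082), Mfap5 (-0.095 to 0.28), Ltbp1 (-1.05 to 0.44), Lox (-0.34 to 0.27), Loxl4 (-0.069 to 1.41), Postn (-0.19 to 0.079), Pcolce (-0.28 to 0.049) and Pcolce2 (-2.95 to 1.44). The cause was not tested. With 2 arrays per line, and values near 6.09 at background, small differences and those of dim genes were not measurable.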
